A study of Populus trichocarpa with 12 samples.

Results

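The genes described here encode the first 3 enzymes of the phenylpropanoid pathway in black cottonwood (Populus trichocarpa). Phenylalanine ammonia-lyase has 5 copies here, PAL1 (Potri.006G126800), PAL2 (Potri.008G038200), PAL3 (Potri.016G091100), PAL4 (Potri.010G224100) and PAL5 (Potri.010G224200). Cinnamate 4-hydroxylase has C4H1 (Potri.013G157900) and C4H2 (Potri.019G130700), and 4-coumarate:CoA ligase has 4CL3 (Potri.001G036900) and 4CL5 (Potri.003G188500). They were chosen by locus identifier, and all 9 were found among the 41335 loci of the count table and passed the filter on low counts. The number after Potri is the chromosome, and the genome build is not given in the labels. RNA was sequenced from developing xylem, the young wood layer below the cambium, of 12 trees of the Nisqually-1 background, all kept in a greenhouse with 16 h of light and 8 h of darkness. Of these, 9 were transgenic trees in which the cauliflower mosaic virus 35S promoter, which is active in most plant tissues, drove the gene of miR397a, and 3 were wild-type trees. Each transgenic tree is a separate line (1, 3, 5, 6, 9, 10, 17, 26 and 30), sampled as 1 tree, so differences between lines cannot be told apart from differences between trees.

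Phenylpropanoid metabolism makes the building blocks of lignin, the polymer that stiffens wood cell walls. PAL removes the amino group of phenylalanine to give cinnamic acid, C4H, a cytochrome P450, hydroxylates it to p-coumaric acid, and 4CL joins such acids to coenzyme A for the steps that lead to the monolignols. Laccases act at the other end of the pathway, where they oxidise monolignols in the wall, and laccase mRNAs are the known targets of miR397a. The comparison of lines with wild type therefore asks whether transcripts at the entrance of the pathway differ when a regulator of its last step is overexpressed.

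Read counts summed over loci, with 1 transcript model per locus, ran from 8015226 to 34112839 in the lines and from 12580140 to 23611857 in wild-type trees. The level of miR397a itself was not analysed here. Potri.008G073700, the locus with the smallest p among those lower in the lines, averaged 130 ± 22.4 CPM over the 9 lines and 497 ± 14.8 CPM over the 3 wild-type trees (± SD). It was chosen for that p, so its difference follows from the choice. Whether its level measures how strongly a line responded was not tested. CPM are counts per 1000000 reads after TMM scaling of the library totals. The 5 loci listed as secondary-wall cellulose synthases, used as markers of developing xylem, had at least 468 CPM in every tree. That list rests on identifiers that the sources used here do not annotate, and markers of other tissues could not be matched to the identifiers. A stretch of 9 neighbouring loci on chromosome 5 took 1.14% to 18.7% of the reads in the lines and 2.80% to 18.9% in wild type, and this share is set beside the results it moved with.

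None of the 9 genes passed the test between lines and wild type, and all 9 estimates lay slightly above 0. The log2 fold changes ran from 0.03 for C4H2 to 0.24 for PAL2, with adjusted p from 0.46 to 0.94 (edgeR quasi-likelihood test, Benjamini-Hochberg over 26298 loci, threshold 0.05). In that comparison 0.0913% of all tested loci were called, 0.0799% lower and 0.0114% higher in the lines. Of the 9 genes, 0 had an unadjusted edgeR p below 0.05, against 11% of all tested loci. DESeq2 called 0 of the 9 and 0.508% of all loci, and limma-voom, run with quality weights per sample, called 0 of the 9 and 0.453% of all loci; with either tool PAL2 alone had an unadjusted p below 0.05. Values of lines and wild type overlapped at all 9 genes, while they did not at 2.95% of all tested loci. The 95% intervals of the 9 fold changes lay between a 0.872-fold level in the lines (lower bound of C4H2) and a 1.47-fold level (upper bound of 4CL5). The median log2 fold change of the 9 genes was 0.17, beside -0.00016 over all tested loci and 0.04 over the 1642 tested loci with a mean of at least 100 CPM. Estimates above 0 were found at 49.96% of all tested loci and at 61.4% of those abundant loci. All 9 estimates rest on the same 12 trees and several of the genes were correlated across lines, so their shared sign is not 9 separate observations.

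PAL2 had the largest estimate. Its level was 731 CPM in the lowest line (line 1), 899.9 CPM in the median line and 1048 CPM in the highest (line 5), against 774, 735 and 749 CPM in wild-type trees 1, 2 and 3. Of the lines, 7 stood above every wild-type tree, 1 within their range and 1 below it. PAL2 averaged 891 ± 111 CPM over the 9 lines and 753 ± 19.9 CPM over the 3 wild-type trees (± SD). On the log2 scale this was 0.24 ± 0.12 (SE; 95% interval -0.0043 to 0.49; edgeR adjusted p = 0.46).

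PAL1 and PAL3 showed the widest spread among the lines of the 5 PAL genes. PAL1 had 562 CPM in line 10, a median of 634 CPM and 959 CPM in line 30, against 567, 644 and 597 CPM in wild-type trees 1, 2 and 3. PAL3 had 397.4 CPM in line 10, a median of 451 CPM and 638 CPM in line 30, against 432, 464 and 407 CPM in wild type. For both genes, lines 30, 5 and 26 stood above all wild-type trees and line 10 below them, so the groups overlapped. The log2 fold changes were 0.20 ± 0.15 for PAL1 and 0.17 ± 0.15 for PAL3 (SE; edgeR adjusted p = 0.637 and 0.701). Without line 30 they were 0.13 for PAL1 and 0.11 for PAL3, and with the chromosome 5 share as covariate 0.12 and 0.11, again without a call.

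PAL4 and PAL5 carry adjacent identifiers on chromosome 10, and their levels ordered the lines in nearly the same way. PAL4 had 1077 CPM in line 1, a median of 1341 CPM and 1491 CPM in line 26, against 1125, 1083 and 1202 CPM in wild-type trees 1, 2 and 3. PAL5 had 692 CPM in line 1, a median of 845 CPM and 993 CPM in line 26, against 741, 693 and 758 CPM in wild type. At each of the 2 genes 5 lines (3, 5, 10, 26 and 30) stood above all wild-type trees and line 1 below them. The log2 fold changes were 0.18 ± 0.12 for PAL4 and 0.17 ± 0.12 for PAL5 (SE; edgeR adjusted p = 0.569 and 0.605). How reads that align to several copies were counted is not stated, so values of any near-identical copies are uncertain, here and at the other genes.

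The C4H genes, which act next, had the smallest estimates. C4H1 had 1192 CPM in line 1, a median of 1333 CPM and 1556 CPM in line 30, against 1261, 1276 and 1323 CPM in wild-type trees 1, 2 and 3. C4H2 had 724 CPM in line 1, a median of 831 CPM and 1029.9 CPM in line 30, against 874, 809.9 and 860.3 CPM in wild type. The same lines, 1 and 30, were the lowest and the highest at both genes. The log2 fold changes were 0.07 ± 0.09 for C4H1 (SE; 95% interval -0.12 to 0.26; edgeR adjusted p = 0.805) and 0.03 ± 0.11 for C4H2 (SE; 95% interval -0.20 to 0.26; edgeR adjusted p = 0.94). Without line 30 the C4H1 estimate was 0.04. The sign of C4H2 was not fixed: it turned to -0.0057 without line 30 and to -0.0032 without wild-type tree 2.

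The 4CL genes, which close the entry into the pathway, differed in how far they varied between trees. 4CL3 had 944 CPM in line 1, a median of 1077 CPM and 1141 CPM in line 9, against 1018, 1025 and 989 CPM in wild-type trees 1, 2 and 3. Its coefficient of variation over the lines, 6.53%, was the smallest of the 9 genes. 4CL3 exceeded every wild-type tree in 6 lines and lay below them in lines 1 and 17. 4CL5 had 104 CPM in line 3, a median of 134 CPM and 179.6 CPM in line 30, against 121, 131 and 91.8 CPM in wild type, a coefficient of variation of 18.6% over the lines and 17.6% over the wild-type trees. With 1056 to 3530 reads of 4CL5 per library, counting error alone gives at most 3.08%. The source of the spread was not tested. The log2 fold changes were 0.07 ± 0.09 for 4CL3 and 0.21 ± 0.16 for 4CL5 (SE; edgeR adjusted p = 0.774 and 0.633). The 4CL5 estimate depended on single trees, at 0.32 without wild-type tree 2 and 0.08 without wild-type tree 3, and was 0.10 with the chromosome 5 share as covariate, each time without a call.

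**Figure D1:**
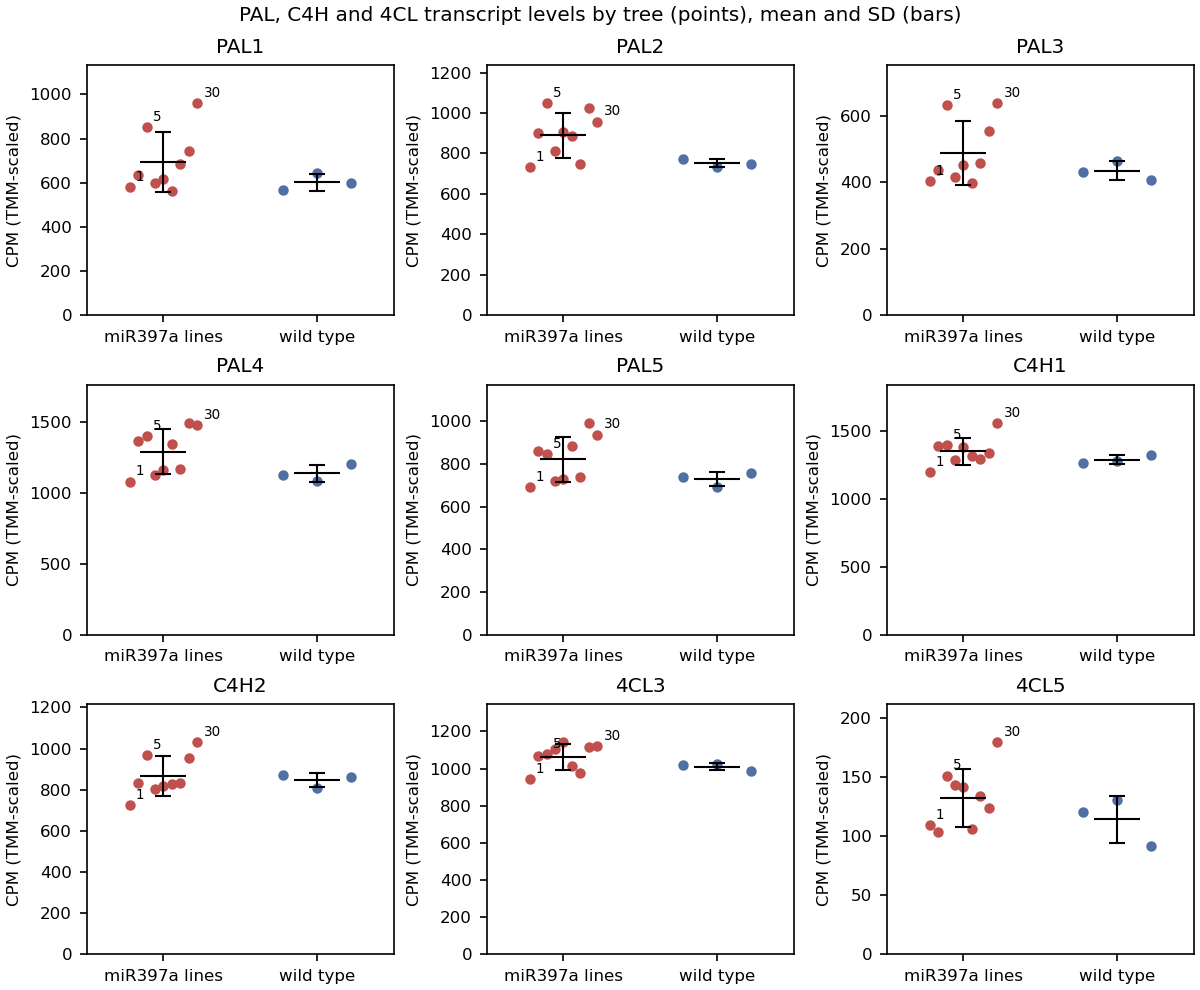
Transcript level (CPM, TMM-scaled, axes from 0) of each of the 9 genes in the miR397a lines (red, in order of line number, with lines 1, 5 and 30 marked) and in the wild-type trees (blue); bars show mean and SD. The groups overlap at every gene, and line 30 stands highest at 5 of the 9.

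Summed over copies, PAL transcripts averaged 4181 ± 544 CPM over the 9 lines and 3657 ± 49.9 CPM over the 3 wild-type trees (± SD). The C4H sum was 2213 ± 188 CPM in the lines and 2135 ± 48.4 CPM in wild type, and the 4CL sum 1196 ± 85.6 CPM in the lines and 1125 ± 39.4 CPM in wild type. All 3 sums were lowest in line 1 and highest in line 30, and they are given without a test. In bulk tissue, fewer cells of a type and less RNA per cell cannot be told apart.

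The remaining steps of the monolignol pathway were read from a list of 13 loci chosen by identifier; the sources used here do not annotate these identifiers, so they are not given enzyme names. Of the 13, 0 were called in either direction, and 3 had an unadjusted edgeR p below 0.05, all with estimates above 0, beside 11% of all tested loci. That count was 6 with DESeq2, 7 with limma-voom and 8 with the chromosome 5 share as covariate in edgeR. It was 0 without wild-type tree 1 and 0 without wild-type tree 2. The median log2 fold change of the 13 loci was 0.20, with 12 of 13 above 0, beside the 0.04 of abundant loci. The highest estimate was that of Potri.009G095800, which averaged 1894 ± 259.9 CPM over the 9 lines and 1508 ± 108 CPM over the 3 wild-type trees (± SD), 0.33 ± 0.13 on the log2 scale (SE; edgeR adjusted p = 0.389). The 5 loci listed as cellulose synthases had log2 fold changes from 0.11 to 0.25, and 0 of them were called. The estimates of all 9 entry genes lay between the lowest (-0.01) and the highest of the 13 loci.

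**Figure D2:**
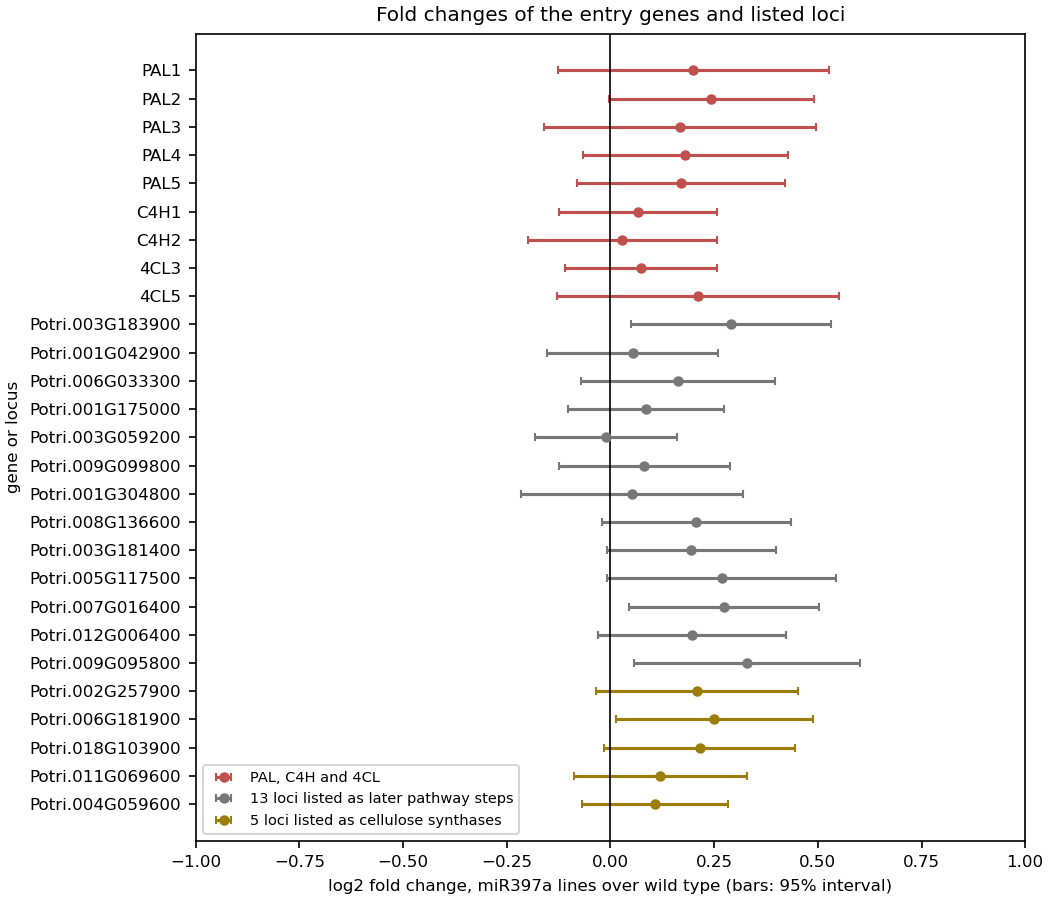
Log2 fold change of miR397a lines over wild type with its 95% interval for the 9 entry genes (red), 13 loci listed as later pathway steps (grey) and 5 loci listed as cellulose synthases (brown). All 9 entry genes have intervals that include 0, with estimates between 0.03 and 0.24.

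Single lines differed in where they stood relative to the wild-type trees. In lines 30 and 5 all 9 genes stood above every wild-type tree, and in line 26 8 of 9 did. Line 1 lay at the other end, with 7 of 9 genes below every wild-type tree and 0 above. Relative to the wild-type mean of each gene, the median log2 deviation over the 9 genes was 0.36 in line 30, 0.30 in line 5, 0.30 in line 26 and -0.08 in line 1. The largest single deviation was 0.67 on the log2 scale, for PAL1 in line 30. The chromosome 5 stretch held 1.27% of the reads in line 30, 2.80% in line 5, 18.7% in line 26 and 3.91% in line 1. Of the lines with high levels, 30 and 5 had low shares and 26 a high share, and the cause of these differences was not tested. The SD over the lines exceeded that over wild-type trees at all 9 genes, but an SD from 3 trees is imprecise and the difference in spread was not tested.

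**Figure D3:**
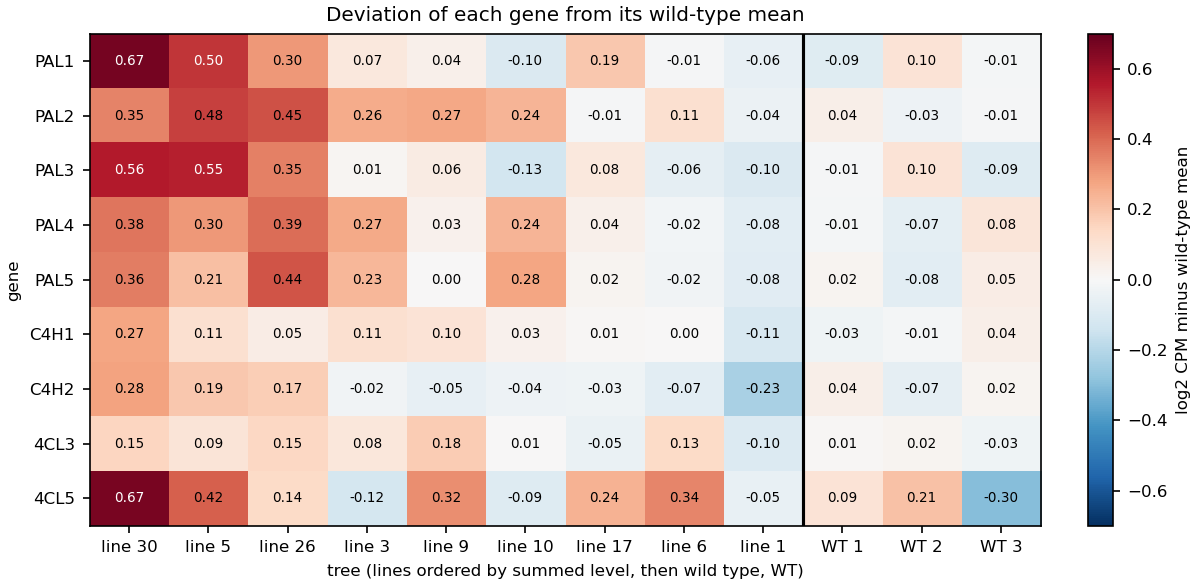
Log2 CPM of each gene minus its wild-type mean, in the lines (left of the black line, ordered by the summed level of the 9 genes) and the wild-type trees (right). Lines 30, 5 and 26 are above 0 at every gene and line 1 is below 0 at every gene.

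Across the 9 lines, PAL1 varied closely with PAL3 and PAL4 with PAL5, and both pairs varied with C4H2. All 36 pairs of genes had a positive Pearson r of log2 CPM, with a median of 0.70 and a range from 0.09 to 0.98. Of these, 10 passed the test (exact permutation over 362880 pairings, two-sided, Benjamini-Hochberg over 36 pairs, threshold 0.05). That count depended on scaling and on single lines, from 4 without line 1 to 36 with library totals. The share of passing pairs among other loci is not given. Over the 12 trees, after subtraction of group means, median r with 13096 other loci ran from -0.06 for 4CL5 to 0.09 for PAL2. PAL1 and PAL3 had r = 0.97 (exact permutation p = 8.27e-06, adjusted 0.000298) and Spearman rho = 0.98 (exact permutation p = 4.96e-05, adjusted 0.00179). PAL4 and PAL5 had r = 0.98 (exact permutation p = 0.000107, adjusted 0.00193) and rho = 0.93 (exact permutation p = 0.00075, adjusted 0.00899). Without the 2 lines farthest from the median, r was 0.95 for PAL1 with PAL3 and 0.96 for PAL4 with PAL5. Lines 30 and 5 led the first pair and lines 26 and 30 the second.

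The likeness within these 2 pairs can be set beside that of all other loci, as a description. Over the 12 trees, after subtraction of group means, PAL1 and PAL3 had r = 0.96, and of 13096 loci with a mean of at least 10 CPM, 0 came closer to either. PAL4 and PAL5 had r = 0.97, and again 0 of those loci came closer to either. Outside the 9 genes, the locus most like PAL4 was Potri.006G033300 (r = 0.96) and that most like PAL5 was Potri.009G095800 (r = 0.95), both from the list of later pathway steps. The loci most like PAL1, PAL2, PAL3 and the C4H and 4CL genes were not on that list. For PAL2 29 loci were closer than PAL4, its nearest member (r = 0.83). For C4H2 14 loci were closer than PAL3 (r = 0.87), and for C4H1 20 were closer than C4H2 (r = 0.80). For 4CL3 43 loci were closer than PAL2 (r = 0.71), and for 4CL5 262 were closer than PAL3 (r = 0.70). The part that reads counted at both copies may have in these values was not tested.

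C4H2 was the gene that most often varied with the others. It was in 6 of the 10 pairs that passed, with all 5 PAL genes and C4H1. Its r was 0.91 with PAL1 (adjusted exact permutation p = 0.00688), 0.93 with PAL3 (adjusted exact permutation p = 0.00813), 0.86 with PAL4 (adjusted exact permutation p = 0.00813), 0.82 with PAL2 (adjusted exact permutation p = 0.036), 0.80 with PAL5 (adjusted exact permutation p = 0.047) and 0.82 with C4H1 (adjusted exact permutation p = 0.0297). The corresponding Spearman rho were 0.88, 0.83, 0.93, 0.78, 0.80 and 0.85, of which those with PAL2 and PAL5 did not pass (adjusted exact permutation p = 0.062 and 0.0553). Without the 2 lines farthest from the median (30 and 1), r of C4H1 with C4H2 was 0.39. PAL1 with C4H1, the other pair with C4H1 that passed, had r = 0.76 and rho = 0.73 (adjusted exact permutation p = 0.047 and 0.0862). Without its 2 farthest lines (30 and 5), r was 0.32. Left out singly, line 30 gave r = 0.70 and line 1 gave 0.73 for C4H1 with C4H2. For PAL1 with C4H1, r was 0.50 without line 30 but 0.78 without line 5. By rank, PAL2 with C4H1 passed as well (rho = 0.83, r = 0.68; adjusted exact permutation p = 0.0425 and 0.0742). The remaining pair, PAL2 with PAL4, had r = 0.85 and rho = 0.82 (adjusted exact permutation p = 0.0246 and 0.0485), and r = 0.77 without the 2 farthest lines.

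Of the 10 pairs, 4 kept their call whichever line was left out (PAL1 with PAL3, PAL4 with PAL5, and C4H2 with PAL1 and with PAL3). PAL2 with PAL4 and PAL4 with C4H2 lost it only without line 1 (adjusted exact permutation p = 0.113 for each). C4H1 with C4H2 lost it without line 1, 5 or 30, PAL2 with C4H2 without line 1, 5, 6 or 10, PAL5 with C4H2 without line 1, 6, 9, 17 or 30, and PAL1 with C4H1 without line 1, 5, 6, 10, 17 or 30. Neither 4CL gene was in a pair that passed. 4CL5 had r = 0.76 with PAL1 and 0.72 with PAL3 but 0.19 with PAL4 and 0.09 with PAL5 (rho 0.60, 0.68, 0.17 and -0.03; adjusted exact permutation p of r = 0.0513, 0.07, 0.638 and 0.808).

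**Figure D4:**
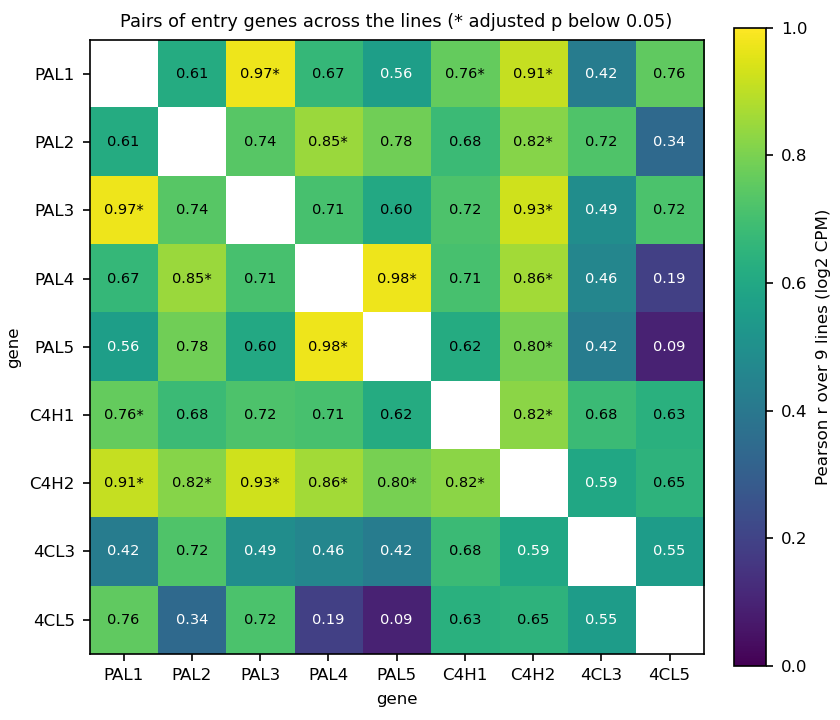
Pearson r of log2 CPM over the 9 lines for each of the 36 pairs of genes; an asterisk marks an adjusted exact permutation p below 0.05. The highest values are PAL4 with PAL5 (0.98) and PAL1 with PAL3 (0.97), and 4CL5 has its lowest values with PAL4 and PAL5.

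The balance between copies of each enzyme did not differ beyond the spread between trees when lines were compared with wild type. PAL3 had 0.704 reads per PAL1 read in the lines (geometric mean) and 0.721 in wild type, and PAL5 had 0.638 reads per PAL4 read in the lines and 0.643 in wild type. PAL2 over PAL4 was 0.691 in the lines and 0.663 in wild type, C4H2 over C4H1 0.640 in the lines and 0.659 in wild type, and 4CL3 over 4CL5 8.12 in the lines and 8.93 in wild type. The log2 differences ran from -0.14 to 0.06, with p from 0.364 to 0.695 (exact permutation test over 220 splits, two-sided; adjusted over 5 ratios 0.625 to 0.695; the smallest p the design allows is 0.00455). All 5 differences depended on single wild-type trees. As each was left out, that of 4CL3/4CL5 ran from -0.23 (without tree 2) to -0.0023 (without tree 3), that of PAL2/PAL4 from 0.016 (without tree 3) to 0.088 (without tree 1) and that of C4H2/C4H1 from -0.069 (without tree 2) to -0.0063 (without tree 1). The differences of PAL3/PAL1 and PAL5/PAL4 changed sign without tree 1, to 0.0060 and 0.0057. These ratios depend on the lengths of both transcripts, which were not used here, so only their differences between trees can be read. The 2 tight pairs were also the steadiest ratios, with an SD over the lines of 0.04 on the log2 scale for PAL5/PAL4 and 0.06 for PAL3/PAL1, against 0.23 for 4CL3/4CL5.

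Among the lines, the balance between PAL1 and PAL4, between PAL1 and PAL2 and between the 4CL copies followed the share of reads on the chromosome 5 stretch. PAL1/PAL4 was highest in lines 30 (0.651), 5 (0.609) and 17 (0.589), whose shares were 1.27%, 2.80% and 1.14%. It was lowest in lines 10 (0.419), 3 (0.464) and 26 (0.498), whose shares were 16.8%, 12.99% and 18.7%. Of the wild-type trees, tree 2 had the highest PAL1/PAL4, 0.594 at a share of 2.80%, while trees 1 and 3 had 0.504 and 0.497 at shares of 18.9% and 16.0%. 4CL3/4CL5 ran in the other direction, with 6.25 in line 30 and 10.3 in line 3 as the extremes of the lines, and 7.85 in wild-type tree 2 beside 8.43 and 10.8 in wild-type trees 1 and 3.

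Over the 9 lines, the log2 share had r = -0.88 with log2 PAL1/PAL4, -0.89 with log2 PAL1/PAL2 and 0.87 with log2 4CL3/4CL5 (exact permutation p = 0.00171, 0.00114 and 0.00292; adjusted over 16 relations 0.0137, 0.0137 and 0.0155). Spearman rho was -0.88, -0.85 and 0.87 (exact permutation p = 0.00308, 0.00607 and 0.00451; adjusted 0.0324 for each), and without lines 26 and 10 r was -0.89, -0.92 and 0.86. These ratios were taken up after their values were seen, so the p-values are not independent evidence. A ratio of 2 genes does not depend on library scaling. The ratios PAL3/PAL1, PAL5/PAL4, PAL2/PAL4 and C4H2/C4H1 did not pass with the share (r = 0.59, 0.49, 0.14 and -0.09). Their adjusted exact permutation p of r were 0.316, 0.42, 0.768 and 0.818, and rho was 0.60, 0.47, 0.30 and -0.15. None of the 9 single genes passed with the share (r from -0.68 for 4CL5 to 0.34 for PAL5; rho from -0.67 to 0.33; adjusted exact permutation p of r at least 0.194). Depth also varied: the log2 share had r = 0.63 with log2 library depth over the lines (exact permutation p = 0.0635; rho = 0.72, exact permutation p = 0.0369; r = 0.23 without lines 26 and 10). With log2 depth itself, r was -0.65 for PAL1/PAL4, -0.41 for PAL1/PAL2 and 0.62 for 4CL3/4CL5 (adjusted exact permutation p = 0.383, 0.624 and 0.383). The corresponding rho were -0.67, -0.48 and 0.77 (adjusted exact permutation p = 0.236, 0.617 and 0.171). Given log2 depth, the partial r of the share was -0.80 with PAL1/PAL4, -0.90 with PAL1/PAL2 and 0.79 with 4CL3/4CL5. Without line 30, r of the share with these ratios was -0.84, -0.88 and 0.83 (adjusted exact permutation p = 0.0645, 0.0645 and 0.0718). With 5 lines between 1.14% and 3.91% and 4 between 7.55% and 18.7%, each range holds fewer than 6 lines, and no correlation is given within them.

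**Figure D5:**
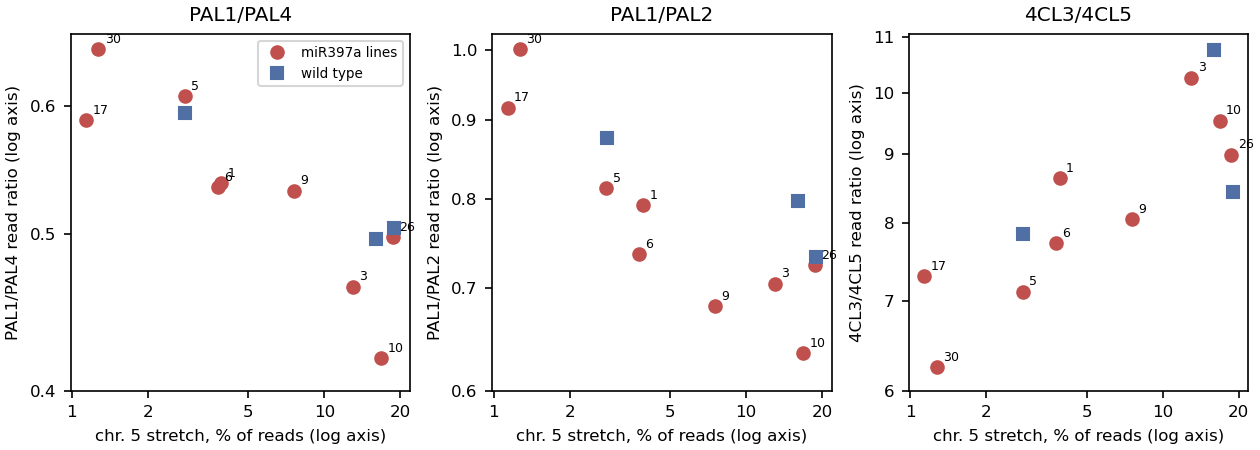
Read ratio of PAL1 to PAL4, PAL1 to PAL2 and 4CL3 to 4CL5 (log axes) against the percent of reads on the chromosome 5 stretch (log axis) in the miR397a lines (red circles, line numbers beside them) and wild-type trees (blue squares). Both PAL1 ratios are highest where the share is low and 4CL3/4CL5 is lowest there, in lines and in wild type.

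No relation was found between the entry genes and the levels of 2 loci that were called between lines and wild type. Over the 9 lines, r of the 9 genes with Potri.008G073700 ran from -0.24 to 0.16 and with Potri.011G041300, the leading locus among those higher in the lines (23.4 to 81.7 CPM in the lines, 0, 0.0740 and 0 CPM in wild-type trees 1, 2 and 3), from -0.33 to 0.25. Spearman rho ran from -0.30 to 0.28 over the 18 relations, of which 0 passed and 0 had an unadjusted exact permutation p below 0.05 (adjusted exact permutation p = 0.999 for every r and 0.948 for every rho). Without the 2 lines farthest from the median of each gene, r ran from -0.73 to 0.71 over the remaining 7 lines.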

How the data were processed

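Raw read counts per transcript model were deposited by the authors as 1 table of 73013 rows and 12 columns; no normalization was found in them. Per the labels' protocols, libraries were made with a TruSeq kit from CTAB-extracted RNA. The submitters' processing notes name bedtools 2.14.2, Bowtie, TopHat and TopHat2 2.0.3 without saying what each did. The sources used here give no build, no annotation and no handling of multiply aligned reads. Columns were matched to trees through the numbers they carry. Nothing says more than that the trees were individuals, so the tests set differences against the spread between these trees. Among the lines that spread holds differences between lines as well as between trees, and among wild-type trees only the latter.

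Each locus was represented by its model with most reads over the 12 trees; of the 9 genes, PAL2 and 4CL3 have 2 models with identical counts. The fit was edgeR 4.0.16 (R 4.3.3) with robust quasi-likelihood over all 12 trees, after filterByExpr (minimum count 10) and TMM scaling. The SE is the log2 fold change divided by the square root of F, and intervals use the fit's degrees of freedom. Correlations used log2 CPM with a prior count of 2, and ratios used counts plus 0.5. The test was checked on simulated data, where 16 of 50 loci with a 1.5-fold change and 41 of 50 with a 2-fold change were recovered. Smaller changes were not simulated, so a missing call does not show that a gene is unchanged. Alternatives used DESeq2 1.42.0, limma 3.58.1, other scalings and filters, and each tree left out.

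The members and lists were chosen with earlier results of these data known. The named genes are the 9 members, the listed loci, the 2 leading called loci (1 lower, 1 higher in the lines) and, for each member, its most similar locus. The reference gene table matched none of the identifiers, so no sequences, lengths or coordinates are given, and marker lists by description were not run.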

Additional observations from a re-analysis of the deposited data

How the results depend on the processing

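Under the other scalings, no filter, DESeq2, limma-voom with sample quality weights, the first-numbered transcript model, the chromosome 5 share as covariate (chosen after seeing the data) and each tree left out, 0 of the 9 entry genes and 0 of the 13 later-step loci were called. The lowest adjusted p among the 9 was 0.144 (PAL2, limma-voom) and among the 13 it was 0.0751 (chromosome 5 share as covariate). With library totals, which shift the median of all loci to 0.07, the 9 log2 fold changes ran from 0.12 to 0.32. The estimate of C4H2 ran from -0.0057 (without line 30) to 0.059 (without line 1) as trees were left out, and was -0.0032 without wild-type tree 2. The differences in log2 PAL3/PAL1 and PAL5/PAL4 were 0.0060 and 0.0057 without wild-type tree 1 and reached -0.074 and -0.026 without wild-type tree 3. No difference in ratio between lines and wild type and no relation with the 2 leading called loci passed under any alternative run. Of the 36 pairs of genes, 10 passed as reported, 8 with Spearman rho, 12 using the size factors of DESeq2 and 36 using library totals, a scaling in which the chromosome 5 share enters every gene alike. With 1 line left out, 4 (without line 1) to 16 (without line 26) passed. The cause was not tested. No paired analysis was possible because a number names a transformation line in one group and a tree in the other, so none is shared by design. Each of the 9 genes had at least 1056 reads in every library, a counting error of at most 3.08%.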

Other observations

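The spread of the entry genes over the lines can be set beside that of other abundant loci, as a description. Of 1637 loci with at least 100 CPM in the lines, the median coefficient of variation was 12.6%. 4CL3 (6.53%) and C4H1 (7.42%) lay at percentiles 8.80 and 13.2 of these loci, and 4CL5 (18.6%), PAL1 (19.6%) and PAL3 (19.6%) at percentiles 82.2, 85.9 and 86.3. PAL2, PAL4, PAL5 and C4H2 lay between percentiles 39.5 and 52.7.

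Both transcript models of 4CL5 were counted differently, and their relation was steady: the second model had 78.8% to 80.5% of the reads of the first in the lines and 77.2% to 81.0% in wild type. The loci most like the other genes over the 12 trees, after subtraction of group means, were Potri.005G162800 for PAL1 (r = 0.94), Potri.001G289600 for PAL2 (r = 0.94), Potri.003G039400 for PAL3 (r = 0.95), Potri.003G097300 for C4H1 (r = 0.97), Potri.014G096100 for C4H2 (r = 0.97), Potri.004G030100 for 4CL3 (r = 0.92) and Potri.015G073800 for 4CL5 (r = 0.94). The sources used here give these loci no names, and none is on the list of later pathway steps. Over the lines, log2 PAL5/PAL4 varied with log2 library depth (r = 0.94, exact permutation p = 0.00112, adjusted over 16 relations 0.0179; rho = 0.68, exact permutation p = 0.0503, adjusted 0.236), and r was 0.73 without lines 5 and 26. This relation was taken up after the values were seen.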
